A study of Mus musculus with 25 samples.

Results

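ORR1 repeats are rodent retrotransposons of the mammalian apparent LTR retrotransposon (MaLR) class, each made of long terminal repeats (LTRs) around an internal part. The copies described here are all rows of the deposited count table that RepeatMasker annotated as MaLR elements with a name beginning with ORR1. They number 92849, of which 10827 lie on the sex chromosomes and 138 on unplaced sequences. The remaining 81884 autosomal copies, of 1573105 autosomal repeat copies in the table, were summed by name into 29 subfamilies. Of these 29 names, 14 are LTRs and 15 are internal parts, whose names end in "-int".

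The 25 RNA-seq libraries were made from pools of 5 to 10 late two-cell mouse embryos, collected 28 to 29 h after fertilization or activation, and fall into 11 groups. IVF embryos (4 libraries) came from C57BL/6N oocytes and DBA2 sperm and are of both sexes. All other embryos were made by somatic cell nuclear transfer (SCNT) of cumulus cell nuclei into oocytes, with both taken from female BDF1 mice, a C57BL/6N and DBA2 cross. All SCNT embryos thus share this background and are female. The labels give an age of 4 to 20 weeks for the oocyte donors. The methods text gives a narrower range, inside that one, for the mice used for IVF. Control SCNT embryos (SCNT_cont, 2 libraries) were made with cytochalasin B. SCNT-Kdm3a and SCNT-Kdm4d embryos (2 libraries each) were injected with 10 pL of Kdm3a or Kdm4d mRNA at 1500 ng/µL, which code for demethylases of histone H3 lysine 9 (H3K9). In the chemical arm latrunculin A replaced cytochalasin B, and its control was CC_cont (2 libraries). CC_T embryos (2) received 25 nM trichostatin A (TSA, a histone deacetylase inhibitor) for 8 h. CC_G embryos received 1 µM of an inhibitor of G9a, the enzyme that places H3K9me1 and H3K9me2, for 24 h, as RK-701 (3 libraries) or A366 (2). CC_TG embryos received TSA together with 1 of 3 G9a inhibitors, RK-701, A366 and UNC0638 (2 libraries each). IVF and SCNT embryos thus differ in oocyte strain and in sex as well as in their origin, and the parts of these in a difference from IVF cannot be told apart. Nothing in the labels says that libraries of a group came from separate nuclear transfer sessions, so p-values measure only the spread between these pools.

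MaLRs carry no functional genes of their own and are non-autonomous relatives of ERVL, the class to which the mouse element MERVL belongs. In oocytes and early embryos MaLR LTRs act as promoters, and some host transcripts start within them. H3K9 methylation is a main means of silencing LTR elements in mammalian cells, and G9a with its partner GLP is known to restrict elements of the ERVL class in embryonic stem cells. Within ORR1, the ORR1A LTRs are the youngest lineage and ORR1B to ORR1G are progressively older.

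To show the promoter-bearing part of the repeat, 5 LTR copies are printed in which a RefSeq transcript starts on the LTR's own strand and which held a mean of at least 5 reads. Each runs 5′ to 3′ from RefSeq promoter windows on GRCm38.p6, the assembly of mm10, clipped to the copy. Capitals mark the 50 bases from the RefSeq start site onward. The ORR1A0 stretch lies at chr9:120063037-120063311 (+), the ORR1A1 stretch at chr10:93126205-93126465 (+) and the ORR1A2 stretch at chr10:110728537-110728798 (-). The ORR1B2 stretch lies at chr8:77764715-77764998 (-) and the ORR1C1 stretch at chr7:122935586-122935885 (+).
ORR1A0 copy at Gm33858: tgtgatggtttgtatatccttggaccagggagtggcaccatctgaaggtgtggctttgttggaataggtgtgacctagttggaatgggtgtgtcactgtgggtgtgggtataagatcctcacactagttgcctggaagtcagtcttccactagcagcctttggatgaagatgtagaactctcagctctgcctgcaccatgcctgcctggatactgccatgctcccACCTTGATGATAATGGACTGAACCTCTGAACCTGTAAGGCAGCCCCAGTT
ORR1A1 copy at Gm40740: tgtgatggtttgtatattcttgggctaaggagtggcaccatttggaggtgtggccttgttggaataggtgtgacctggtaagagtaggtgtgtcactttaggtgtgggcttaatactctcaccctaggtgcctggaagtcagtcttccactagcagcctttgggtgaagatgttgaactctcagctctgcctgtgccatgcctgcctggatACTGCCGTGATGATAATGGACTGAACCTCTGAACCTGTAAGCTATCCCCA
ORR1A2 copy at Gm36751: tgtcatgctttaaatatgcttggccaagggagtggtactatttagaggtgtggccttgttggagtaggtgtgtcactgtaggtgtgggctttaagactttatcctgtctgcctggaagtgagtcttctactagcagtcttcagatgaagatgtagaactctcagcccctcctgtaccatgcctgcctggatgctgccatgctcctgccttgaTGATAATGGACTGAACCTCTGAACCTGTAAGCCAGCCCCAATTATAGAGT
ORR1B2 copy at Gm29845: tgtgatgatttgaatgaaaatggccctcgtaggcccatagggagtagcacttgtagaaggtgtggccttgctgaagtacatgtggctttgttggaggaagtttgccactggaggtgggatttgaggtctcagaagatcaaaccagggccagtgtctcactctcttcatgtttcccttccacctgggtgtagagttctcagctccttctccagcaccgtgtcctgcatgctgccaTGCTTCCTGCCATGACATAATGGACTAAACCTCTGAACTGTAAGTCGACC
ORR1C1 copy at Gm39083: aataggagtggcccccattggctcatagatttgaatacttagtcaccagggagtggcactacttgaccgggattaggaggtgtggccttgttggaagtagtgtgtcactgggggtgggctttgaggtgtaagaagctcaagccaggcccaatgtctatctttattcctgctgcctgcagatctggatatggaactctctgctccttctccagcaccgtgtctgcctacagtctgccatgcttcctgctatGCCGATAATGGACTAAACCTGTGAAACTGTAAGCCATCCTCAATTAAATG

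The transcripts began at bases 226, 212, 213, 235 and 263 of these copies, in the order printed. On a global alignment the ORR1A0 stretch was 85.7% identical to the ORR1A1 stretch and 79.1% identical to the ORR1A2 stretch. It was 67.8% identical to the ORR1B2 stretch and 68.4% identical to the ORR1C1 stretch. A second ORR1A0 stretch, at Gm32894, was 93.1% identical to the first. Not every pair of younger names was closer than a pair of a younger and an older one, as ORR1A1 and the ORR1A2 stretch at Gm40180 were 70.1% identical, and the ORR1A2 stretch at Gm36751 and ORR1C1 71.0%.

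Of 31396 autosomal RefSeq start sites, 171 fell in an ORR1 copy and 159 of those in an ORR1 LTR. In 122 of the 159 (76.7%) the transcript ran in the direction of the LTR, and the median start lay at base 206 of the copy, with quartiles at 149 and 239. ORR1A LTRs held 82 of the 159 starts (51.6%) and make up 36.1% of ORR1 LTR copies. The letters CTGTAAG, chosen after the sequences had been seen, were searched on both strands of the 300-base windows around these 122 starts, which run from 250 bases before the start to 50 after it. They stood in 59 windows (48.4%), against 3.78% of all windows. TATAAA was present in 27 of the 122 windows (22.1%) against 13.6% of all, and GGATTA, a core that homeodomain factors such as OBOX proteins can bind, in 14 (11.5%) against 7.06%. Such matches are a description of the letters and are not evidence of binding.

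**Figure D1:**
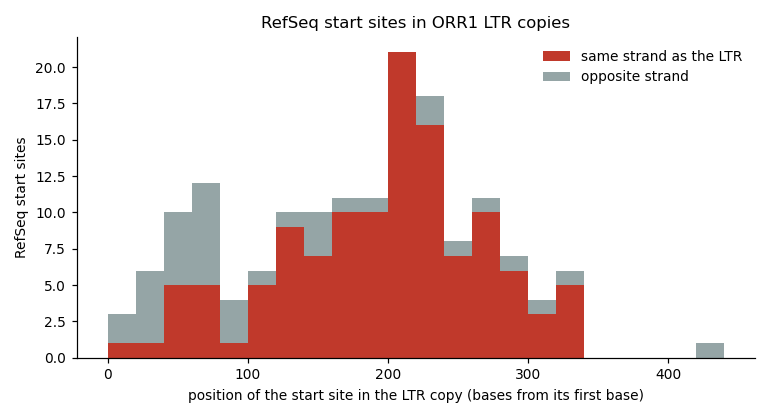
Position of 159 RefSeq start sites within ORR1 LTR copies, as bases from the first base of the copy (x axis) against the number of start sites (y axis), split by strand. Starts on the LTR's own strand gather in the second part of the LTR, with a median at base 206.

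LTRs made up 87.45% of the autosomal copies, but internal parts held 59.94% of the ORR1 reads. The 2569 internal copies of ORR1A0, ORR1A1 and ORR1A2, 3.137% of the copies, held 51.37% of the reads. Of all copies, 41047 had no read in any library and 3004 (3.669%) reached a mean of 5 reads, holding 89.07% of the ORR1 reads. A set of 212 copies held 50% of the reads and the most-read copy held 1.118%. Per megabase of annotated sequence, the mean level in IVF embryos was 7378 CPM per Mb for ORR1A0-int, 4063 for ORR1A1-int, 2282 for ORR1A0, 1517 for ORR1A2-int and 975.7 for ORR1A1. CPM here means counts per 1000000 gene reads after scaling. The older LTRs ORR1D1 and ORR1D2 stood at 94.36 and 66.26 CPM per Mb. Only reads that aligned to 1 place with no mismatch were counted, so reads shared by near-identical young copies are missing from these levels. Of the copies, 38.3% lay in gene bodies. No repeat copy of any family overlapped an exon of the deposited annotation, so these levels hold no copy in an exon annotated there.

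Libraries held 6662727 to 21188688 gene reads (median 13994840) and 100258 to 297933 reads on autosomal ORR1 copies, which was 6.252 to 14.84% of all repeat reads. Injected mRNA is read with the embryo's own. Kdm3a stood at 3465 and 3116 CPM in SCNT-Kdm3a against 108.5 to 266.5 CPM in all other libraries, and Kdm4d at 18540 and 12540 CPM in SCNT-Kdm4d against 0.7177 to 5.081. All 11 genes listed for two-cell embryos, among them the oocyte genes Zp3, Gdf9 and Bmp15, were above 1 CPM on average in every group. Of 12 cumulus cell markers 3 to 6 did so, with a summed level of 35.92 to 76.52 CPM, highest in CC_T (64.05 and 76.52) and 45.51 to 53.95 in IVF, where no donor cell was used. Amhr2 alone gave group means of 25.88 to 56.37 CPM, while no group mean of Fshr or Col1a2 was above 0.3535 CPM. The part of this signal in any ORR1 result was not tested. In pools of embryos, less RNA per embryo and fewer embryos expressing an element cannot be told apart.

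Summed over all names, ORR1 copies stood at 15200 ± 492.3 CPM in IVF embryos (SD, n = 4), at 9332 ± 1073 in SCNT_cont (n = 2) and at 9010 ± 1032 in CC_cont (n = 2). The 4 IVF libraries ran from 14660 to 15680 CPM and the 4 untreated SCNT libraries from 8281 to 10090. The internal parts stood at 46.29% and 44.17% of the IVF mean in SCNT_cont and CC_cont, and the LTRs together at 90.37% and 88.26%. The LTR sum joins names that differ, with ORR1A0 at 58.16% and 52.13% of IVF and ORR1A1 at 62.75% and 61.69%, but ORR1D1 at 142.3% and 124.6%. In CC_cont it also holds ORR1E, at 537.5 CPM in 1 library and 48.97 in the other. With Kdm3a mRNA the sum was 15390 ± 306.3 CPM (n = 2), or 101.3% of IVF, and with Kdm4d mRNA 11110 ± 519.3 (73.11%). In the chemical arm it was 82.31% of IVF with TSA, 63.58% with RK-701, 80.49% with A366, and 90.86% with TSA and RK-701, 88.74% with TSA and A366 and 92.34% with TSA and UNC0638.

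**Figure D2:**
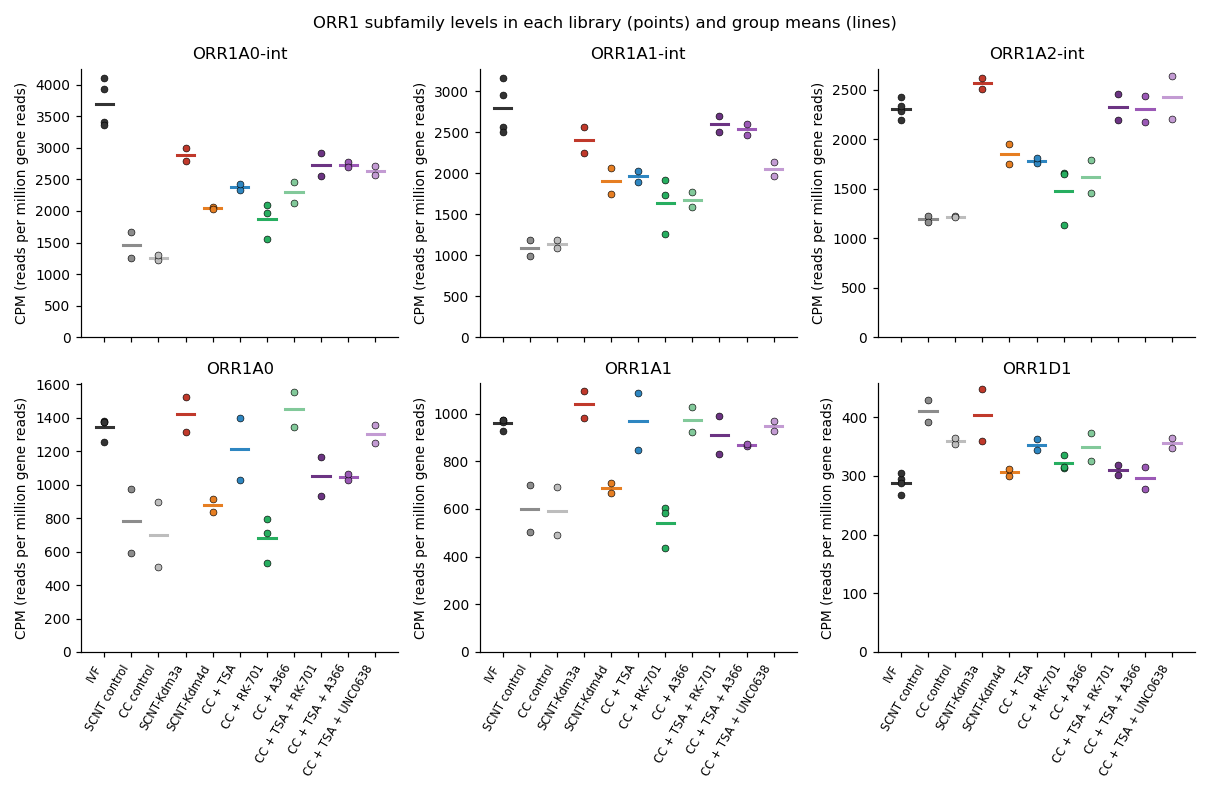
Level of 6 ORR1 subfamilies (CPM, y axis) in each of 25 libraries (points), by group (x axis), with group means as lines. The internal parts of ORR1A0, ORR1A1 and ORR1A2 are lowest in the 2 untreated SCNT groups, while ORR1D1 is lowest in IVF.

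To ask which ORR1 elements untreated SCNT embryos express at another level than IVF embryos, all 669 repeat families with a mean of at least 10 reads were fitted together (edgeR's quasi-likelihood test, called at a Benjamini-Hochberg adjusted p below 0.05). Among them were 28 ORR1 subfamilies. ORR1A0-int stood at 4109, 3400, 3359 and 3928 CPM in the IVF libraries, at 1673 and 1251 in SCNT_cont and at 1219 and 1298 in CC_cont. ORR1A1-int stood at 3166, 2566, 2496 and 2952 CPM in IVF, at 1185 and 984.5 in SCNT_cont and at 1189 and 1087 in CC_cont. Neither set of IVF levels overlaps with the untreated SCNT levels.

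Of all 669 families 43 were lower and 251 higher in SCNT_cont than in IVF (43.9% called in either direction). Among them 7 ORR1 subfamilies were lower and 9 higher. The 7 were the ORR1A internal parts and the 2 youngest LTRs, with log2 fold changes of -1.34 (SE 0.141, adjusted p = 7.82e-07) for ORR1A0-int and -1.37 (SE 0.1544) for ORR1A1-int. They were -0.95 for ORR1A2-int, -0.75 for ORR1A3-int, -0.82 for ORR1A4-int, -0.78 for ORR1A0 and -0.67 for ORR1A1. The 9 were ORR1A4, ORR1B2, ORR1C1, ORR1C1-int, ORR1C2, ORR1D1, ORR1D2, ORR1D2-int and ORR1E-int, at 0.28 to 0.97. ORR1D1 stood at 267.4, 293.9, 304 and 287.1 CPM in IVF and at 428.9 and 390.8 in SCNT_cont. Over all 669 families the median log2 change was 0.44, and over the 28 ORR1 names it was 0.06. When libraries were scaled to repeat reads in place of gene reads, the split was 1 higher and 12 lower. When copies inside gene bodies were left out it was 1 and 9. The ORR1A internal parts were lower under every scaling, whereas the direction of ORR1A4, ORR1B2, ORR1C1 and ORR1E-int reversed under repeat scaling. The calls of ORR1A0 (-0.47) and ORR1A1 (-0.45) were lost without SCNT_cont replicate 2.

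CC_cont gave 8 lower and 7 higher subfamilies against the same IVF libraries, with 36.5% of all families called (58 lower and 186 higher). The log2 change was -1.56 (SE 0.1426, adjusted p = 9.7e-08) for ORR1A0-int, -1.30 for ORR1A1-int, -0.99 for ORR1A4-int, -0.94 for ORR1A0, -0.92 for ORR1A2-int, -0.80 for ORR1A3-int, -0.70 for ORR1A1 and -0.62 for ORR1B1-int. The higher calls were 0.32 to 0.72 for ORR1B2, ORR1C1-int, ORR1C2, ORR1D1, ORR1D2 and ORR1D2-int, and 2.98 for ORR1E. The ORR1E value rests on 1 library: it stood at 48.97 and 537.5 CPM in CC_cont, at 32.09 to 40.72 in IVF and at 25.53 to 64.42 in all other libraries. The excess came from a single 59-base copy at chr3:102796232-102796290 (mm10) in an intron of Tspan2, which had 5182 reads in CC_cont replicate 2 and at most 29 in any other library. Without that library CC_cont gave 8 lower and no higher calls, and without CC_cont replicate 1 the ORR1A1 call was lost (-0.47). Under repeat scaling the split was 2 higher and 11 lower, and outside gene bodies 0 and 11. Every chemical comparison uses CC_cont, and ORR1E is called lower in all 6 of them. CC_cont replicate 2 raises the reference mean in each. Set against CC_cont replicate 1 alone (48.97 CPM), ORR1E was lower with TSA and RK-701 (33.39 and 25.53) and with TSA and A366 (32.04 and 28.94). CC_T (48.39 and 39.9) and RK-701 alone (45.12 to 47.33) also lay below it, by less. A366 alone and TSA with UNC0638 had libraries on both sides of it.

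**Figure D3:**
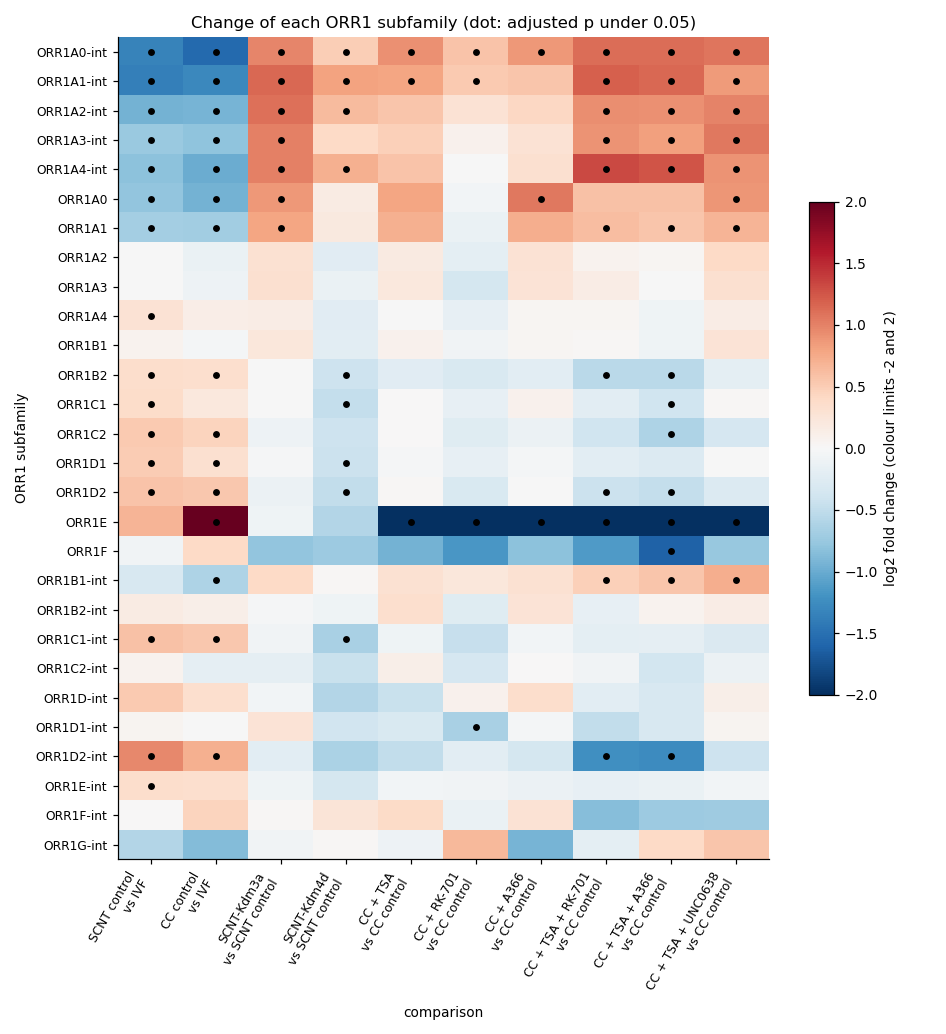
Log2 fold change (colour, limited at -2 and 2) of 28 ORR1 subfamilies (rows) in 10 comparisons (columns), with a dot where the adjusted p is below 0.05. The ORR1A internal parts at the top are lower in both untreated SCNT groups than in IVF, and ORR1E is set apart by 1 CC_cont library.

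To ask whether these elements differ with the injected H3K9 demethylases, SCNT-Kdm3a and SCNT-Kdm4d were compared with SCNT_cont, which both comparisons share. SCNT_cont received no mRNA, and no group was injected without a demethylase mRNA. The parts of the injection and of the demethylase therefore cannot be told apart. With Kdm3a, 7 ORR1 subfamilies were higher and none lower, against 5.68% of all families called (32 higher and 6 lower). ORR1A0-int stood at 2784 and 2995 CPM in SCNT-Kdm3a and at 1673 and 1251 in SCNT_cont, a log2 change of 0.98 (SE 0.1542, adjusted p = 0.00049). ORR1A1-int stood at 2244 and 2565 CPM against 1185 and 984.5, a log2 change of 1.15 (SE 0.1693, adjusted p = 0.000295). ORR1A2-int stood at 2616 and 2511 CPM against 1224 and 1161, a log2 change of 1.10 (adjusted p = 0.000295). The libraries of both groups do not overlap for these 3 names. ORR1A3-int and ORR1A4-int rose by 1.01 each on the log2 scale, ORR1A0 by 0.86 and ORR1A1 by 0.79. The median over the 28 names was 0.01, against -0.05 over all families. Under repeat scaling 9 subfamilies were higher and none lower, and with only the 4 compared libraries in the fit 3 were called. The LTR calls rest on single libraries: ORR1A0 was not called without SCNT_cont replicate 2 (0.55) or SCNT-Kdm3a replicate 1 (0.75), nor ORR1A1 without SCNT_cont replicate 2 (0.56) or SCNT-Kdm3a replicate 2 (0.71). The calls of the 5 internal parts were kept without any 1 library.

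With Kdm4d, 4 subfamilies were higher and 5 lower, against 17.3% of all families (9 higher and 107 lower). ORR1A1-int stood at 1741 and 2059 CPM, a log2 change of 0.81 (SE 0.1682, adjusted p = 0.00857), and ORR1A0-int at 2059 and 2038 CPM, a log2 change of 0.49 (adjusted p = 0.035). ORR1A2-int rose by 0.63 and ORR1A4-int by 0.71. ORR1B2, ORR1C1, ORR1C1-int, ORR1D1 and ORR1D2 were lower by 0.41 to 0.64 on the log2 scale, while the median over all families was -0.39. Under repeat scaling 6 were higher and none lower, outside gene bodies 4 were higher and 2 lower, and without TMM factors 2 were higher and 14 lower. These calls depend on each library. Without SCNT_cont replicate 1 or SCNT-Kdm4d replicate 1, 2 calls were left, and without SCNT_cont replicate 2 or SCNT-Kdm4d replicate 2, none was.

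In the chemical arm, each agent on its own was compared with CC_cont. CC_T gave 2 higher calls, ORR1A0-int and ORR1A1-int, and 1 lower call, ORR1E, against 0.598% of all families. ORR1A0-int stood at 2329 and 2422 CPM in CC_T, a log2 change of 0.92 (SE 0.154, adjusted p = 0.00387), and ORR1A1-int at 1896 and 2026 CPM, a log2 change of 0.78 (adjusted p = 0.0204). The ORR1A1-int call was lost without any 1 of the 4 libraries. ORR1A0 stood at 1399 and 1030 CPM, a log2 change of 0.79 (adjusted p = 0.142). With only the compared libraries in the fit, 0 ORR1 subfamilies were called with TSA, with RK-701 or with A366 alone.

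RK-701 alone gave higher calls for ORR1A0-int and ORR1A1-int and lower calls for ORR1E and ORR1D1-int, against 13.8% of all families. Over all families 7 were higher and 85 lower. ORR1A0-int stood at 1556, 2099 and 1966 CPM, a log2 change of 0.57 (SE 0.1417, adjusted p = 0.0103), and ORR1A1-int at 1257, 1917 and 1736 CPM, a log2 change of 0.52 (adjusted p = 0.0317). All 3 libraries lie above both CC_cont libraries for each name, replicate 1 the least. No ORR1 call was left without CC_cont replicate 2. Without RK-701 replicate 2 or 3 there were 2, and the ORR1A1-int call was lost (0.40 and 0.48). The median over all families was -0.28 and over the 28 ORR1 names -0.16. Under repeat scaling 4 were higher and 1 lower. A366 alone gave higher calls for ORR1A0-int (2464 and 2133 CPM, log2 change 0.87, adjusted p = 0.00393) and for the LTR ORR1A0 (1346 and 1553 CPM, log2 change 1.05, adjusted p = 0.026). ORR1E was lower, and 0.897% of all families were called. Without A366 replicate 1 no call was left, and without replicate 2 there was 1. The ORR1A0 call was also lost without CC_cont replicate 1 (0.70).

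TSA with RK-701 gave 7 higher and 4 lower subfamilies (28.7% of all families), TSA with A366 7 and 7 (31.7%) and TSA with UNC0638 8 and 1 (14.9%). Over all families the splits were 20 higher and 172 lower, 16 and 196, and 49 and 51, in the same order. With only the compared libraries in the fit, 0 ORR1 subfamilies were called with RK-701, 3 with A366, all higher, and 0 with UNC0638. ORR1A0-int stood at 2555 and 2911 CPM with RK-701, at 2772 and 2697 with A366 and at 2564 and 2704 with UNC0638, log2 changes of 1.12 (SE 0.1546, adjusted p = 0.00011), 1.12 and 1.07. ORR1A4-int, with 263.5 and 245.2 CPM in CC_cont, stood at 614.8 and 660.4, 640.4 and 582.4, and 533.9 and 416.2 CPM, log2 changes of 1.33, 1.27 and 0.90. The ORR1A4-int means with RK-701 and A366 were 126.4% and 121.2% of the IVF mean, and those of ORR1A0-int lay below each of the 4 IVF libraries. ORR1A1, ORR1A1-int, ORR1A2-int, ORR1A3-int and ORR1B1-int were higher in all 3 groups, at 0.48 to 1.19, and ORR1A0 with UNC0638 (0.89). Without CC_cont replicate 1 the ORR1A1 call was lost in all 3 groups (0.40, 0.33 and 0.45) and the ORR1A0 call with UNC0638 (0.54). ORR1A1 was also not called without the second library with RK-701 (0.49) or either library with A366 (0.56 and 0.55) or UNC0638 (0.71 and 0.65), nor ORR1A0 without the second with UNC0638 (0.83). ORR1B1-int was lost without each of the 4 libraries with RK-701, without CC_cont replicate 1 or the first library with A366, and without the first with UNC0638. Apart from ORR1E, the lower calls were ORR1B2, ORR1D2 and ORR1D2-int with both RK-701 and A366, and ORR1C1, ORR1C2 and ORR1F with A366.

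The lower calls of the older names moved with the scaling, as the median log2 change over all families was -0.40, -0.47 and -0.19 in these 3 comparisons. Under repeat scaling the splits were 12 higher and 2 lower, 13 and 2, and 11 and 1. Outside gene bodies they were 7 and 1, 7 and 1, and 11 and 0, and without TMM factors 5 and 11, 5 and 13, and 5 and 4. ORR1D2-int, at 36.43 and 55.67 CPM in CC_cont, stood at 20.56 and 18.56 with TSA and RK-701 and at 20.74 and 17.51 with TSA and A366. Its call, like that of ORR1D2, was lost in both without CC_cont replicate 2. Without replicate 2 of TSA and RK-701 there were 6 ORR1 calls in that comparison, and without replicate 1 or 2 of TSA and A366 there were 9 or 8.

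Whether TSA and a G9a inhibitor together differ from the sum of the single effects was tested as an interaction on the log2 scale. For RK-701 no ORR1 subfamily and 0% of all families were called, with 2 of 28 ORR1 names and 76 of 669 families at an unadjusted p below 0.05, and DESeq2 called 0 of the 28. For ORR1A0-int the interaction was -0.37 (95% interval -0.80 to 0.06) and for ORR1A1-int -0.12 (-0.59 to 0.35). For A366, ORR1A0 (-1.26, SE 0.3341, adjusted p = 0.0287) and ORR1A1 (-0.87, SE 0.2596, adjusted p = 0.0395) were called, against 8.67% of all families. Neither was called under repeat scaling. Both calls were lost without CC_cont replicate 1 (-0.91 and -0.65), where 1 other subfamily was called, and ORR1A1 without A366 replicate 2. Leaving out CC_cont replicate 2 gave 6 calls, CC_T replicate 2 gave 7, and CC_T replicate 1, A366 replicate 1 or either library of TSA with A366 gave 0.

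The 3 G9a inhibitors, RK-701, A366 and UNC0638, were given at the same dose (1 µM) and time (24 h), and 3 pairs could be compared, with p-values adjusted over all families within a pair. A366 against RK-701 gave 5 higher and 1 lower ORR1 subfamily, against 25.9% of all families (154 higher and 19 lower). The LTRs ORR1A0, ORR1A1, ORR1A2 and ORR1A3 were higher with A366, by 1.10 (SE 0.2119, adjusted p = 0.00124), 0.85, 0.48 and 0.63 on the log2 scale. ORR1D1-int was higher by 0.60 and ORR1G-int lower, at -1.59. ORR1A0 stood at 1346 and 1553 CPM with A366 and at 529.9, 796.5 and 710.1 CPM with RK-701. For the internal parts no difference was called: it was 0.29 (95% interval 0.007 to 0.58, adjusted p = 0.129) for ORR1A0-int and 0.03 (-0.28 to 0.35) for ORR1A1-int. Without RK-701 replicate 1 or A366 replicate 1, 3 calls were left, and those of ORR1A2, ORR1D1-int and ORR1G-int were lost. Over all families the median difference was 0.33, and over the 28 ORR1 names it was 0.26. With 6 of 28 called, ORR1 names were not called more often than families at large.

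In the presence of TSA, A366 and RK-701 gave 0 ORR1 calls and 0% of all families, with 0 of 28 ORR1 names and 28 of 669 families at an unadjusted p below 0.05 and 0 ORR1 calls by DESeq2. The difference was 0.00085 (95% interval -0.32 to 0.32) for ORR1A0-int and -0.04 (-0.39 to 0.31) for ORR1A1-int, which leaves room for changes of that size. UNC0638 against RK-701, both with TSA, also gave 0 ORR1 calls, with 5 of 28 at an unadjusted p below 0.05 and 0 by DESeq2, while 7.03% of all families were called. There the difference was -0.42 (-0.80 to -0.05, adjusted p = 0.157) for ORR1A4-int, -0.34 (-0.69 to 0.005) for ORR1A1-int and 0.31 (-0.18 to 0.80) for ORR1A0. With only the compared libraries in the fit 6 ORR1 subfamilies were called.

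MERVL-int and its LTR MT2_Mm, a related element of the two-cell stage, were set beside ORR1. Like the ORR1A internal parts, MERVL-int was lower in SCNT_cont (-0.89, adjusted p = 0.00027) and in CC_cont (-1.25, adjusted p = 1.7e-05) than in IVF and higher with Kdm3a (0.71, adjusted p = 0.0251). MT2_Mm was also lower in both (-0.69 and -1.12, adjusted p = 0.0124 and 0.000429), and with Kdm3a it changed by 0.50 (adjusted p = 0.254). With A366 alone MT2_Mm was higher (1.09, adjusted p = 0.026), as ORR1A0 was. With TSA and RK-701, ORR1A0-int rose as given above, whereas the log2 change was 0.24 (SE 0.1866, adjusted p = 0.348) for MERVL-int and -0.03 (adjusted p = 0.932) for MT2_Mm. With TSA and UNC0638 they were 0.99 (adjusted p = 0.00144) and 1.04 (adjusted p = 0.00656). UNC0638 against RK-701, both with TSA, gave 0.75 (adjusted p = 0.018) for MERVL-int and 1.07 (adjusted p = 0.0102) for MT2_Mm, a pair in which no ORR1 subfamily was called. Other families set beside ORR1 moved otherwise. MTA_Mm, a MaLR LTR, was higher in SCNT_cont than in IVF (0.63, adjusted p = 0.0119) and lower with TSA and RK-701 (-0.86, adjusted p = 0.0097). With RK-701 alone MTA_Mm-int was higher (0.75, adjusted p = 0.00848) and the MaLR LTR MTB_Mm lower (-0.37, adjusted p = 0.0394). MLT1A was called in no comparison. The differences between ORR1 and MERVL or these other families in response were not themselves tested.

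To see whether the sums rest on few or many copies, 46280 autosomal repeat copies with a mean of at least 5 reads were tested singly in 5 comparisons, 3004 of them ORR1. They passed the filter on their mean over all libraries and are not all members. In CC_cont against IVF, 590 ORR1 copies were lower and 135 higher (24.1%), against 13.1% of all copies called at an adjusted p below 0.05 and more than a 2-fold change. Internal parts of ORR1A gave 342 of the lower calls and 19 of the higher, of 921 tested. ORR1A LTRs gave 202 and 55 of 1237, and all older names 46 and 61 of 846. ORR1A0-int had 139 lower and 1 higher of 220 copies, with a median log2 change of -2.74. The median over all 3004 was -0.52 (-0.51 with copies lacking reads in a group held at the 3-read floor), against 0.41 over all copies (0.41 with the floor). Without CC_cont replicate 2 there were 41 higher and 325 lower calls, and with that library kept, leaving out any other 1 gave 503 to 604 calls.

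SCNT-Kdm3a had 136 ORR1 copies higher and 2 lower than SCNT_cont (4.59%), against 0.862% of all copies. Of these, 83 were ORR1A internal parts, 45 ORR1A LTRs and 8 older names. ORR1A0-int gave 32 of 220, ORR1A1-int 24 of 241, ORR1A2-int 20 of 296 and ORR1A0 28 of 316. The median log2 change was 0.68 over the ORR1 copies (0.64 with the floor) and -0.03 over all copies (-0.02 with the floor). SCNT-Kdm4d had 40 higher and 1 lower (1.36%), against 0.257% of all copies, with 26 of the 40 in ORR1A internal parts. Fewer copies were called without any 1 library: 23 to 77 with Kdm3a, the fewest without SCNT_cont replicate 2, and 4 to 24 with Kdm4d, where that library again left the fewest. Leaving out SCNT_cont replicate 1 left 55 and 17, and the first and second injected library left 40 and 77 for Kdm3a and 24 and 18 for Kdm4d.

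With RK-701 alone 18 copies were higher and 1 lower than in CC_cont (0.632%), against 0.385% of all copies, and 17 of the 18 were ORR1A internal parts. This count rests on single libraries, being 0 without RK-701 replicate 3, 2 without replicate 2, 8 without replicate 1, 3 without CC_cont replicate 2 and 62 without CC_cont replicate 1. With TSA and RK-701, 112 were higher and 4 lower (3.86%), against 0.536% of all copies, among them 79 ORR1A internal parts and 28 ORR1A LTRs. It was 14 without replicate 2 of that group, 68 without replicate 1, 43 without CC_cont replicate 2 and 85 without CC_cont replicate 1. The median log2 change over the ORR1 copies was 0.13 (0.09 with the floor) with RK-701 alone and 0.47 (0.43) with TSA added, against -0.36 (-0.36) and -0.30 (-0.28) over all copies.

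**Figure D4:**
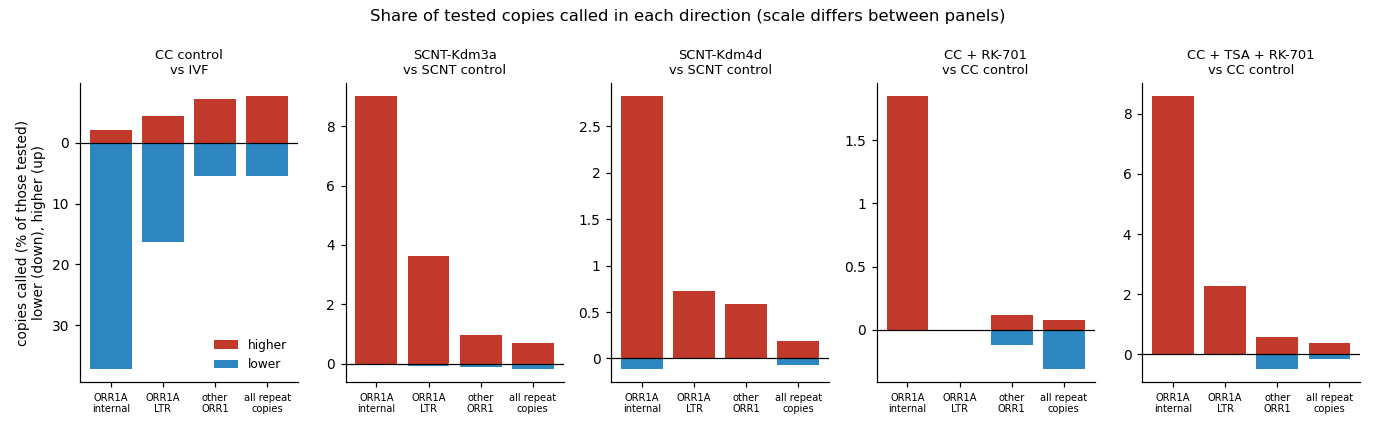
Percent of tested copies called higher (up, red) or lower (down, blue) in 5 comparisons, for 921 ORR1A internal copies, 1237 ORR1A LTR copies, 846 older ORR1 copies and all 46280 repeat copies; the y scale differs between panels. Of the 4 sets, ORR1A internal copies have the largest share of lower calls in CC_cont against IVF and of higher calls in the other 4 panels.

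Comparisons with no library in common were set beside each other copy by copy. Of the 590 copies lower in CC_cont than in IVF, 109 (18.5%) were among the 136 higher with Kdm3a, which is 80.1% of the 136. Over all 3004 tested ORR1 copies, 19.6% were lower in CC_cont and 4.53% higher with Kdm3a. They held 35 of the 40 higher with Kdm4d (5.93% of the 590 and 87.5% of the 40), against 1.33% of tested copies higher with Kdm4d. Of the 135 copies higher in CC_cont than in IVF, 0 were higher with Kdm3a, against the same 4.53% of tested copies. Of the 112 copies higher with TSA and RK-701, 54 (48.2%) were among the 136 of Kdm3a (39.7%) and 27 (24.1%) among the 40 of Kdm4d (67.5%), and 3.73% of all tested copies were higher with TSA and RK-701. Copies with more reads are called more readily in every comparison, and the part of read depth in these shares was not tested. Of the 590 copies, 215 had at most 3 reads in each CC_cont library, and 45 of the 136 had at most 3 in each SCNT_cont library. Such copies passed the filter on the mean over all libraries only through groups where they are high. That filter favours these overlaps, so the shares cannot show a common response.

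The 5 copies with the highest level over the groups differed in how far they moved. The ORR1A0-int copy at chr9:57507804-57509580 (mm10, +), outside any gene body, stood at 174, 194, 167.8 and 156 CPM in IVF, at 83.87 and 93.06 in SCNT_cont and at 98.1 and 74.94 in CC_cont. It stood at 176 and 182.3 CPM in SCNT-Kdm3a, a log2 change of 1.02 (SE 0.222, adjusted p = 0.03), and every IVF and Kdm3a library lay above every untreated SCNT library. The ORR1A1-int copy at chr1:57979309-57981090 (-), within Kctd18, changed by -0.71 in CC_cont against IVF (adjusted p = 0.0789). The ORR1A2-int copy at chr19:3824612-3825642 (+), over Gm16066 on the other strand, stood at 78.01 to 97.68 CPM in IVF and at 74.2 to 114.2 in the 4 untreated SCNT libraries, so that these groups overlap. For this copy the change in CC_cont was 0.05 (SE 0.248). The ORR1A1-int copy at chr4:40282753-40284113 (+) changed by -0.07 (SE 0.23) and the ORR1A0-int copy at chr5:138120984-138122763 (-), within Zscan21 on the other strand, by -0.48 (SE 0.26, adjusted p = 0.221).

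Other copies had reads in every IVF library and none in CC_cont. The ORR1A2-int copy at chr8:128876272-128877844 (+), in the body of Ccdc7a, had 158, 295, 479 and 404 reads in IVF and 0 in all 4 untreated SCNT libraries. Against a floor of 3 reads in each CC_cont library it was at least 115-fold lower in CC_cont than in IVF. It had 30 and 82 reads in SCNT-Kdm3a (adjusted p = 0.0537), and 29 and 162 with TSA and RK-701, at least 30.6-fold above CC_cont. The latter call was lost without either CC_cont library or the second library of TSA and RK-701. The ORR1A1-int copy at chr1:17610713-17612470 (+), in Pi15, had 141, 373, 317 and 408 reads in IVF and 1, 0, 0 and 0 in the untreated SCNT libraries, at least 106-fold lower in CC_cont. The ORR1A0-int copy at chr5:27021503-27021976 (+), in Dpp6, had 158, 291, 224 and 282 reads in IVF and 0 in the 4 untreated libraries, at least 86.8-fold lower in CC_cont. It stayed at 0 to 7 reads in every other library except the second of TSA and RK-701, which had 50.

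In the other direction, the ORR1A2 copy at chr13:70031713-70032026 (+), in Gm3772, had no read in IVF and 19 and 38 in CC_cont, at least 8.66-fold higher. The ORR1B2 copy at chr12:44195452-44195785 (-), outside gene bodies, had none in IVF and 52 and 24 in CC_cont, at least 9.59-fold higher. Both had reads in the 2 SCNT_cont libraries as well, 19 and 10 for the ORR1A2 copy and 8 and 36 for the ORR1B2 copy.

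The ORR1A0-int copy at chr16:61214814-61216142 (+) lay outside gene bodies. Among copies with at least 10 reads in each injected library, it changed most in both injected groups. It had 0 reads in both SCNT_cont libraries, 217 and 141 with Kdm3a (at least 44.2-fold higher) and 313 and 269 with Kdm4d (at least 83.3-fold higher). It had 226, 240, 374 and 521 reads in IVF and 11 and 23 in CC_cont, so the untreated groups of both arms lay below every IVF library. The ORR1A4-int copy at chr6:27799207-27800298 (+), in the body of Grm8, had 0 reads in SCNT_cont and 108 and 90 with Kdm3a, at least 25.2-fold higher. An ORR1D1-int copy on chromosome 18 went from 0 reads to 148 and 97, at least 30.3-fold higher. The ORR1A4-int call was lost without any 1 of the 4 libraries, and the ORR1D1-int call without either SCNT_cont library.

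The ORR1A3-int copy at chr8:102590220-102591204 (-), outside gene bodies, had only 6, 5, 14 and 7 reads in IVF. It had 0 in all 4 untreated SCNT libraries, 39 and 106 with Kdm4d (at least 20-fold higher) and 115 and 271 with TSA and RK-701 (at least 62.9-fold higher). Its level with TSA and RK-701, at 8.889 and 18.9 CPM, lay above that in IVF, at 0.3108 to 0.9303 CPM. The Kdm4d call was lost without any 1 of the 4 libraries, and the other without either CC_cont library or the second treated library. The ORR1A1-int copy at chr8:50972576-50974314 (-) had 1 and 0 reads in SCNT_cont and 208 and 468 with Kdm4d, against 102 to 242 in IVF. Its call was lost without either SCNT_cont library. The copies lower with an injected demethylase were 3. An ORR1G-int copy in Gm12514 (chr4:55212538-55213423) went from 11 and 36 reads to 0 and 0 with Kdm3a, at least 9.51-fold lower. An ORR1A0 copy (chr17:17340199-17340541) went from 21 and 12 reads to 1 and 0 with Kdm3a. An ORR1A1-int copy (chr17:47401584-47402037) went from 115 and 121 reads to 13 and 25 with Kdm4d. Each of these 3 calls was lost without any 1 of its 4 libraries.

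With RK-701 alone, the ORR1A0-int copy at chr1:44859681-44861429 (-), outside gene bodies, had 30, 46 and 25 reads against 0 and 0 in CC_cont, at least 11.9-fold higher. With TSA and RK-701 it had 54 and 156 reads, at least 34.1-fold higher, and in IVF 78, 203, 231 and 325. The ORR1A2-int copy at chr4:132844887-132846770 (+) had 17, 28 and 23 reads with RK-701 against 0 and 1 in CC_cont, and an ORR1A1-int copy on chromosome 18 had 31, 18 and 24 against 2 and 0. With RK-701 alone the calls of the first and second copy were lost without any 1 of the 5 libraries, and that of the last without CC_cont replicate 2 or RK-701 replicate 3. Of the 4 copies lower with TSA and RK-701, 1 was the ORR1E copy in Tspan2, which was not lower without CC_cont replicate 2. An ORR1D2 copy (chr8:23343506-23343848) went from 18 and 28 reads to 0 and 0, at least 8.12-fold lower, and an ORR1D1-int copy in Gm12724 (chr4:106268685-106268934) from 24 and 25 to 2 and 2. These calls too were lost without CC_cont replicate 2 or either treated library.

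**Figure D5:**
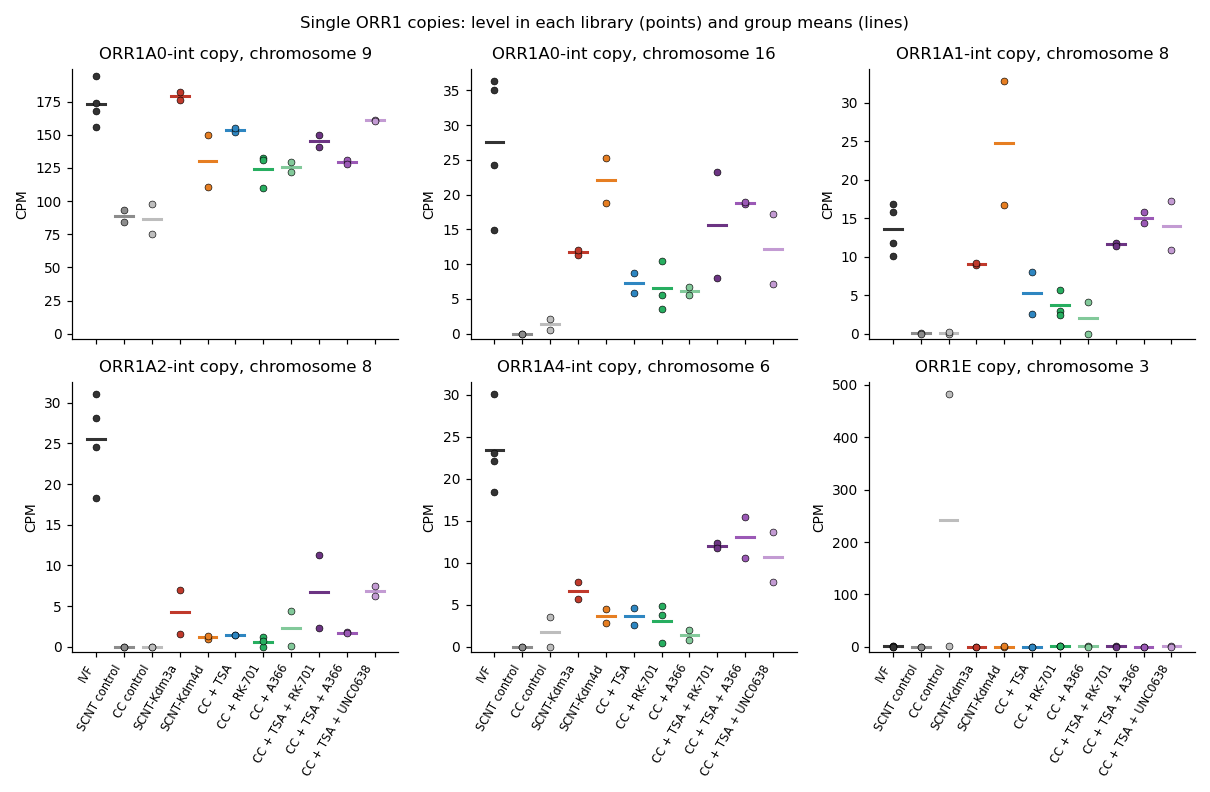
Level of 6 single ORR1 copies (CPM, y axis) in each of 25 libraries (points), by group (x axis), with group means as lines. All 5 internal copies are lower in each untreated SCNT library than in each IVF library, the chromosome 9 copy still at 74.94 to 98.1 CPM there, and the ORR1E copy is high in 1 CC_cont library alone.

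Of the printed LTR copies, the ORR1A2 copy at Gm36751 moved with the internal parts. It had 23, 48, 54 and 39 reads in IVF, 6 and 4 in SCNT_cont, 10 and 5 in CC_cont, 67 and 38 with Kdm3a and 60 and 59 with TSA and RK-701. Its log2 change was -2.63 (SE 0.47, adjusted p = 0.00143) in CC_cont against IVF, 2.90 (SE 0.52, adjusted p = 0.0102) with Kdm3a and 3.08 (SE 0.507, adjusted p = 0.00881) with TSA and RK-701. With Kdm4d it was 2.17 (adjusted p = 0.076) and with RK-701 alone 1.92 (adjusted p = 0.077). These calls were not checked by leaving out single libraries. The other printed copies were called in none of the 5 comparisons. Nor were the ORR1A0 copy at Gm32894 and the ORR1A2 copy at Gm40180, which met the same rule but are not printed. The ORR1A2 copy at Gm40180 changed by -0.95 in CC_cont against IVF (adjusted p = 0.447), by -0.23 with Kdm3a and by -0.56 with TSA and RK-701. The ORR1A0 copy at Gm33858, for example, stood at 0.769 CPM in IVF and 1.22 in CC_cont, while the sum of its subfamily was lower there.

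Copies inside gene bodies can be read as part of the host's unspliced transcript. Of the 1223 tested copies in 1 gene body, 448 (36.6%) lay in the direction of the gene, and the counting did not use strand. Of the 590 copies lower in CC_cont than in IVF, 165 lay in gene bodies, and for 39 of the 153 whose host was tested the host was lower too, against 6.48% of all genes tested. Of the 136 higher with Kdm3a, 26 lay in gene bodies, and 7 of 24 tested hosts were higher too, against 2.38% of all genes. With TSA and RK-701 it was 30 of 112, and 4 of 28 hosts, against 3.68%. Among 1715 tested copies outside gene bodies, 425 were lower and 57 higher in CC_cont, 110 higher and 1 lower with Kdm3a, and 82 higher and 1 lower with TSA and RK-701. Among 1289 inside, it was 165 and 78, 26 and 1, and 30 and 3, in the same order. Of all tested repeat copies, inside and outside, 5.43% were lower in CC_cont, 0.694% higher with Kdm3a and 0.385% higher with TSA and RK-701. The shares of all repeat copies outside gene bodies alone were not taken.

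Genes known to control LTR elements formed a list of 18, of which 16 were among 25794 autosomal genes tested (adjusted p below 0.05 and over 2-fold). Suv39h1 is X-linked and Duxf3, which codes for the activator DUX, did not reach a mean of 1 read. In CC_cont against IVF, 2 were higher and 1 lower, against 15.3% of all genes. Obox3, a homeobox gene of the two-cell stage, stood at 330.4 ± 31.4 CPM in IVF (SD, n = 4) and at 39.05 ± 12.2 in CC_cont (n = 2), a log2 change of -3.08 (SE 0.274, adjusted p = 9.3e-09). Ehmt2, which codes for G9a, was higher in CC_cont, at 30.61 CPM against 10.12 (log2 change 1.596, SE 0.208, adjusted p = 2.97e-06), and Chaf1b, a subunit of the histone chaperone CAF-1, by 1.00. With Kdm3a 3 were higher and none lower, against 4.16% of all genes, and the same 3 with Kdm4d, against 3.14%. They were Obox3 (3.08 and 2.51) and the paired chromatin factors Dppa2 (1.38 and 1.17) and Dppa4 (1.21 and 1.11). With RK-701 alone 1 was higher, Obox3 (1.69, adjusted p = 0.000426), against 3.35% of all genes. With TSA and RK-701 4 were higher, against 6.19%: Obox3 (1.91), Dppa2 (1.18), Dppa4 (1.14) and Smarcad1 (1.04), a chromatin remodeller. Obox3 stood at 29.07 and 59.55 CPM in CC_T and at 30.44 and 47.67 in CC_cont. A link between any listed gene and ORR1 levels was not tested. Setdb1, Trim28, Kdm1a and Uhrf1 were not called in these 5 comparisons. In CC_cont against IVF some genes of the list passed the adjusted p but not the 2-fold threshold. Lower were Setdb1 (-0.78, edgeR adjusted p = 0.00703), Dppa4 (-0.70, 0.0123), Uhrf1 (-0.64, 0.0157) and Zfp57 (-0.69, 0.031). Higher were Ehmt1 (0.66, 0.0163), Kdm1a (0.58, 0.017) and Chaf1a (0.84, 0.0179). In the same way Smarcad1 was higher with Kdm3a (0.74, 0.0179) and with Kdm4d (0.65, 0.0414). Ehmt1, which codes for GLP, was lower with RK-701 alone (-0.71, 0.0459).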

How the data were processed

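SMART-Seq HT libraries were sequenced as paired ends on polyadenylated RNA. Per the methods and labels, the authors ran Trimmomatic for trimming and STAR for alignment to mm10, keeping unique alignments without mismatches, and counted pairs with featureCounts without regard to strand over genes and RepeatMasker copies. The deposited values are these whole-number counts. Autosomal ORR1 copies were summed by name. Library sizes and TMM factors came from genes, and CPM is counts per 1000000 gene reads after TMM scaling. All tests used edgeR 4.0.16 (R 4.3.3): its quasi-likelihood test with 1 term for each of the 11 groups over all 25 libraries, and Benjamini-Hochberg adjustment over all features tested. Families needed a mean of 10 reads, copies 5 and genes 1, and copies and genes also a change over 2-fold. DESeq2, the study's own tool, was an alternative (run here as 1.42.0). Tables were joined with pandas 2.3.3 and sequences aligned with Biopython 1.88. The scripts were tested on simulated counts. The members and gene lists were chosen with earlier results of these data known. The single copies described are the 5 with the highest mean level and, per comparison, up to 3 called in each direction with the largest change, provided every library of the group with the higher level held 10 reads or more. A planned test of genes starting inside an ORR1 copy had no gene, since no copy in the table overlaps an exon, so genes starting within 100 bases were used. Counting error alone limits low counts: 0 reads allow up to 3.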

Additional observations from a re-analysis of the deposited data

Results flagged for a closer look

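In IVF, the only group with 4 libraries, each of 28 ORR1 subfamilies was checked for a library far from the others (Dixon's test, critical value 0.829). Chance marks about 1 in 20 such groups, and 3 of 28 were marked. ORR1A0 stood at 1256 CPM in IVF replicate 1, below the other 3 libraries (gap ratio 0.944). ORR1C1-int stood at 17.98 CPM in the same library (gap ratio 0.894). ORR1A4-int stood at 550 CPM in IVF replicate 3, above the others (gap ratio 0.877).

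The effect of A366 differed by the presence of TSA for 2 of 28 ORR1 subfamilies, both LTRs, and for 58 of 669 families (8.67%), whose median interaction was -0.49 on the log2 scale. ORR1 names were thus not called more often than families at large. The interaction was -1.26 on the log2 scale for ORR1A0 (SE 0.3341, edgeR adjusted p = 0.0287) and -0.87 for ORR1A1 (SE 0.2596, adjusted p = 0.0395). ORR1A0 stood at 508.4 and 894.8 CPM in CC_cont, at 1399 and 1030 in CC_T, at 1346 and 1553 with A366 and at 1030 and 1066 with both. Both calls were lost without CC_cont replicate 1, CC_T replicate 1, A366 replicate 1 or either library with both agents, and with repeat scaling, and that of ORR1A1 also without A366 replicate 2.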

How the results depend on the processing

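Counts of called ORR1 subfamilies are named here by treated group, against the controls of the report. Without TMM factors, Kdm4d gave 16 and the TSA and A366 interaction 5. With scaling to repeat reads, CC_T gave 5 and that interaction 0. With no read filter, CC_T gave 5, A366 alone 5, the TSA and RK-701 interaction 1, and UNC0638 against RK-701 with TSA 2. Outside gene bodies, SCNT_cont against IVF gave 10, RK-701 alone 2, TSA with A366 8, the A366 interaction 1 and UNC0638 against RK-701 with TSA 3. Without the most-read copy of each subfamily these last gave 5 and 1. With only the compared libraries in the fit, Kdm3a gave 3, TSA with A366 3, UNC0638 against RK-701 with TSA 6, and CC_T, RK-701 alone, A366 alone, TSA with RK-701, TSA with UNC0638 and the A366 interaction 0 each. With both untreated SCNT groups as reference RK-701 alone gave 8. The cause of these moves was not tested, nor was the part of the fewer degrees of freedom when fewer libraries are fitted.

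Same-numbered libraries share no stated origin, and with at most 2 pairs per comparison their deviations correlated at -0.33 to 0.16. With the replicate number as a block, Kdm4d gave 3, CC_T 1, RK-701 alone 2, A366 alone 1 and the A366 interaction 0 subfamilies, and single copies numbered 397 in CC_cont against IVF, 76 with Kdm3a, 3 with RK-701 alone and 52 when TSA was added; other counts stayed within 1.5 times. With the CC_T numbers crossed, a pairing added after the data were seen because CC_T and CC_cont gave the lowest correlation, CC_T gave 2. Copies without TMM factors numbered 88 with Kdm3a and 71 with TSA and RK-701. DESeq2 called 315 copies with Kdm3a, 158 with Kdm4d, 121 with RK-701 alone and 350 when TSA was added. In the deposited gene annotation no gene starts inside an ORR1 copy, since no repeat copy of any family there overlaps an exon. The RefSeq starts inside ORR1 copies given above come from another annotation. Of deposited genes starting within 100 bases, 7, 1, 1, 1 and 2 were called in CC_cont against IVF, Kdm3a, Kdm4d, RK-701 alone and TSA with RK-701. These were calls among 39 tested genes. Over all genes tested the shares called were 15.3%, 4.16%, 3.14%, 3.35% and 6.19%, in the same order.

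Signs that turned under repeat scaling were ORR1A4 (-0.17), ORR1B2 (-0.11), ORR1C1 (-0.078) and ORR1E-int (-0.097) in SCNT_cont against IVF, ORR1B2 (0.017) and ORR1D1 (0.0029) with Kdm4d, and ORR1C1 (0.037) with TSA and A366. Outside gene bodies ORR1C2 (-0.14), ORR1D1 (-0.093) and ORR1E (-0.072) turned in CC_cont against IVF, and ORR1E with RK-701 (0.17), A366 (0.19) and TSA with UNC0638 (0.26). Without CC_cont replicate 2, ORR1E with TSA and UNC0638 was 0.0020 (lowest over single libraries left out -3.454) and the ORR1E copy with TSA and RK-701 0.36 (lowest -9.711). No other called sign turned: of the named values under alternatives that keep all libraries, 1179 kept their call, 207 lost it and 13 turned.

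Leaving out 1 library at a time gave 11 to 16 subfamilies for SCNT_cont and 8 to 15 for CC_cont against IVF, 5 to 7 for Kdm3a, 0 to 2 for Kdm4d, 1 to 3 for CC_T, 0 to 6 for RK-701 alone, 0 to 3 for A366 alone, 6 to 10 for TSA with RK-701, 8 to 12 for TSA with A366 and 7 to 9 for TSA with UNC0638. It gave 0 to 1 for the RK-701 interaction, 0 to 7 for the A366 interaction, 3 to 6 for A366 against RK-701, and 0 for both pairs with TSA. Copies numbered 3.7e+02 (without CC_cont replicate 2, 41 higher and 325 lower) to 604 in CC_cont against IVF, 23 to 77 with Kdm3a, 4 to 24 with Kdm4d, 0 to 62 with RK-701 alone and 14 to 85 when TSA was added to it. A group left with 1 library was assumed to vary like the others. With groups of 2 pools and 3.669% of copies deep enough to test, a copy that was not called is not shown to be stable.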

Other observations

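Of 51146 autosomal genes, 142 start within 100 bases of an ORR1 copy, and 39 of these were tested. In CC_cont against IVF 7 were called, 3 lower and 4 higher. Gm10343 was lower by a log2 change of -1.53 (SE 0.246, edgeR adjusted p = 4.82e-05), 1700017M07Rik by -3.11 (SE 0.672, adjusted p = 0.0012) and AC121603.4 was lower at an adjusted p of 0.047. Higher were 2400006E01Rik (3.96), Abcg2 (adjusted p = 0.00897), which codes for an efflux transporter, Gm44111 (2.55) and Gm13166 (1.497). Gm10343 was higher with Kdm3a (1.89, SE 0.276), with Kdm4d (1.82, SE 0.276) and with TSA and RK-701 (1.47, SE 0.269). 1700017M07Rik was higher with RK-701 alone (2.80, SE 0.684, adjusted p = 0.0148) and with TSA and RK-701 (2.81, SE 0.714, adjusted p = 0.0117). The background shares of called genes are those given for the regulator list. Whether these transcripts begin in the repeat was not tested.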
